A study of Mus musculus with 6 samples.

Results

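The fibroblast and mural cell markers followed here are *Thy1*, *Pdgfra*, *Pdgfrb*, *Dpt*, *Cd34*, *Ly6a*, *Clec3b*, *Twist1*, *Rgs5*, and *Mcam*, read as a measure of how far cultures of Schwann cells (SCs) carried RNA of other cells. They were chosen by name, as the rows of the exonic count table whose Ensembl identifier maps to these symbols, and all 10 of 10 were found among 55401 listed genes. SCs of adult mice, cultured from dorsal root ganglia, gave 3 WT and 3 *Plxnb1*-/- libraries for bulk RNA-seq. The mutant mice carry a gene trap, a cassette with a transmembrane segment, lacZ and neo inserted into *Plxnb1*, as a germline allele and not in SCs alone. The control libraries are labelled WT, and the colony was kept on C57BL/6. In the methods of the study, heterozygous as well as WT littermates served as controls in general, and for these libraries the label alone gives the genotype. All 6 cultures were treated alike, with forskolin (2 μM), neuregulin (10 nM), and 10% FBS, removal of fibroblasts with magnetic beads and an antibody to Thy1, and harvest between passages 3 and 5, where the labels give a purity above 80%. Exact age, sex, and the number of animals behind a library are not given in the sources used here, so p-values measure the spread between these libraries, part of which may be technical.

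Fibroblasts of a nerve lie within its sheaths and between its fibers, and mural cells (pericytes and smooth muscle) wrap its vessels. PDGF ligands act on both through the receptor tyrosine kinases encoded by *Pdgfra*, the classical fibroblast receptor, and *Pdgfrb*, which marks mural cells and many fibroblasts. Several markers are shared with other cells: Thy1 is also a surface protein of neurons, and *Cd34*, *Ly6a*, and *Mcam* are also read in endothelium.

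Depth ranged from 59252048 to 77280964 counts per library. A gene was taken as detected from 3 counts on, or 0.0388 to 0.0506 CPM (counts scaled to library size, for this floor by the total alone and for all other values with edgeR's TMM factors), and this floor reflects counting error only. *Plxnb1* itself stood at 45.4 to 96.4 CPM in the WT libraries, above the 13.1 to 18.6 CPM of the *Plxnb1*-/- libraries. The defining SC markers were high in every library: on the scale of CPM per kb of exon, which allows genes to be compared, *Sox10*, the transcription factor of the lineage, ranged from 142 to 190.1, *Erbb3*, the neuregulin receptor, from 53.8 to 82.7, and *Ngfr*, the p75 receptor, from 47.9 to 72.4. *S100b*, the calcium-binding protein used to stain SCs, was lower, at 4.78 to 5.54 CPM per kb. WT replicate 2 stood apart from the other libraries, as the lowest for *Sox10*, *Erbb3*, and *Ngfr* but the highest for *S100b*. This is described with the profiles, and values without this library stand beside many of the results.

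The 10 markers fell into 3 tiers of level. *Mcam*, *Thy1*, and *Pdgfrb* stood at the level of the main SC genes, *Rgs5*, *Twist1*, and *Pdgfra* well below it, and *Ly6a*, *Cd34*, *Dpt*, and *Clec3b* below 1 CPM per kb. Of the 22280 tested genes with a known exon length, *Mcam* ranked 110th by mean CPM per kb, *Thy1* 201st, and *Pdgfrb* 342nd, with *Sox10* at 171st. *Rgs5* ranked 2871st, *Twist1* 5391st, and *Pdgfra* 7311th, whereas *Clec3b* ranked 20009th. The median over all these genes was 2.42 CPM per kb.

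*Mcam* encodes an adhesion molecule of the immunoglobulin family (CD146) found on mural and endothelial cells, and it was the most abundant marker, at 185 to 254 CPM per kb over the 6 libraries. Which cells this RNA came from was not tested. *Thy1*, the antigen of the antibody used to remove fibroblasts, followed at 128 to 218 CPM per kb. Their ranges overlapped, and *Mcam* exceeded *Thy1* in 5 of 6 libraries. *Pdgfrb* measured 103 to 133 CPM per kb, a range that overlapped with that of *Thy1*, although *Thy1* was the higher in all 6 libraries. From which cells the RNA of *Thy1* and *Pdgfrb* came, SCs among them, was not tested either.

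The middle tier was separate from the upper one. *Rgs5*, a regulator of G-protein signaling typical of pericytes, measured 18.5 to 23.4 CPM per kb, and its mean was lower than that of *Pdgfrb* by a ratio of 5.41. *Twist1*, a transcription factor of mesenchyme, measured 8.20 to 12.7 CPM per kb. *Pdgfra* measured 5.62 to 9.08 CPM per kb, which overlapped with *Twist1*, but *Twist1* was higher in each of the 6 libraries. The receptors of the PDGF pair thus differed widely, with *Pdgfrb* above *Pdgfra* by a ratio of 14.6 to 18.9. A gap with a ratio of means of 16.4 separated *Pdgfra* from the lowest tier.

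In the lowest tier, *Ly6a*, a surface antigen of fibroblasts and stem cells (Sca-1), measured 0.233 to 0.599 CPM per kb, *Cd34*, a sialomucin of progenitors and fibroblasts, 0.275 to 0.492, and *Dpt*, a matrix protein of connective tissue (dermatopontin), 0.224 to 0.453. These ranges overlapped, and the order of these genes differed between libraries. *Clec3b*, which encodes the secreted protein tetranectin, was lowest at 0.0515 to 0.0834 CPM per kb. It rested on 4, 4, and 5 counts in WT replicates 1, 2, and 3 and on 4, 6, and 4 counts in *Plxnb1*-/- replicates 1, 2, and 3, close to the floor of 3. *Dpt* and *Ly6a* had 28 to 50 and 22 to 50 counts, and *Cd34* 139 to 210. All 10 markers passed the minimum of 2 counts in at least 5 of 6 libraries, and none was listed at 0 in any library.

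**Figure D1:**
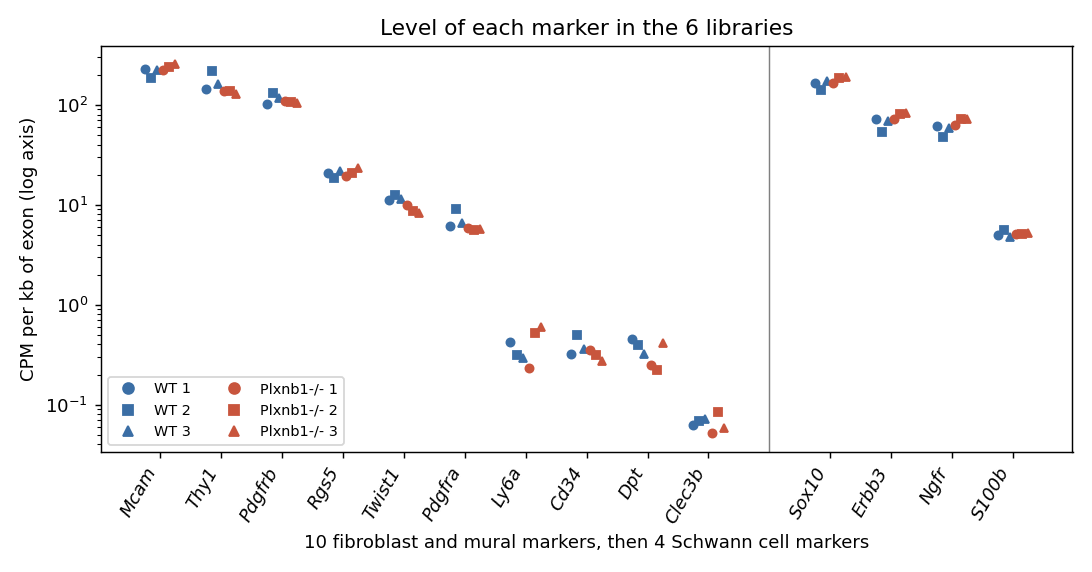
Level of each marker in the 6 libraries in CPM per kb of exon on a log axis, with WT in blue, Plxnb1-/- in red and the replicate number as the symbol. The 10 fibroblast and mural markers stand left of the line by falling mean, and 4 SC markers right of it; Mcam, Thy1 and Pdgfrb lie above 100 like Sox10, and Ly6a, Cd34, Dpt and Clec3b lie below 1.

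For the comparison of genotypes, edgeR's quasi-likelihood test called 0 of the 10 markers (a call needs an adjusted p under 0.05 and a log2 fold change beyond 0.25 in either direction), where 0.0358% of the 22318 tested genes were called. DESeq2 called 1 of 10, *Twist1*, against 1.50% of all tested genes, and limma on the deposited FPKM values called 0. At an unadjusted p below 0.05 in edgeR, 3 of 10 passed (*Thy1*, *Pdgfra*, and *Twist1*), against 13.7% of all tested genes. Of the 10 log2 fold changes, 7 were below 0 (48.5% of all tested genes), with a median of −0.22 against 0.00 over all tested genes, and without WT replicate 2 the median was −0.09 against 0.01. The markers with no overlap between genotypes were the same 3, all lower in *Plxnb1*-/- SCs, against 10.4% of all tested genes in this direction and 19.7% in either. In bulk samples, fewer cells of a type and less RNA per cell cannot be told apart.

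In WT replicates 1 to 3, *Thy1* stood at 429, 652, and 490 CPM, and in *Plxnb1*-/- replicates 1 to 3 it stood at 409.7, 409, and 384 CPM. WT replicate 2 was far above the rest, while WT replicate 1 lay near the highest *Plxnb1*-/- library, so that the genotypes were apart but nearly touched. The WT mean was 524 ± 115 CPM, and the *Plxnb1*-/- mean was 401 ± 14.7 CPM (SD, n = 3 each). The log2 fold change was −0.39 (standard error, SE, 0.13, and edgeR gave an adjusted p of 0.293), and DESeq2 gave an adjusted p of 0.0544. Without WT replicate 2 it was −0.20 (adjusted p = 0.417 from edgeR). Per unit of *Sox10*, with both in CPM per kb, *Thy1* stood at 0.870, 1.54, and 0.953 in WT and 0.824, 0.738, and 0.674 in *Plxnb1*-/- SCs.

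*Thy1* lies on the plus strand of chromosome 9 (GRCm38, chr9:44043384-44048579), and *Mcam* lies 0.0859 Mb from it, on the same strand. Both are on the chromosome of *Plxnb1* but about 65.0 Mb from it, and *Clec3b* is 14.0 Mb away. The genes whose profile over the 6 libraries was most like that of *Thy1*, by the root mean square difference of centered log2 CPM, were *Rab15* (0.0289), *Ly6e* (0.0322), *Pycr1* (0.0325), *Pknox2* (0.0384), and Gm49643 (0.0408). For all 5, as for *Thy1*, WT replicate 2 was the highest library, which follows from their choice by likeness. No other marker of the list was among them. Only genes with a mean of at least 1 CPM were compared, which left out *Dpt*, *Ly6a*, and *Clec3b*.

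For *Pdgfra*, WT replicates 1 to 3 gave 61.3, 91.0, and 66.6 CPM, and *Plxnb1*-/- replicates 1 to 3 gave 59.1, 56.4, and 58.0 CPM. The pattern resembled that of *Thy1*, with WT replicate 2 highest and a narrow gap between the other WT and the *Plxnb1*-/- libraries. Its log2 fold change was −0.33 (SE 0.12, and edgeR gave an adjusted p of 0.314), and −0.14 without WT replicate 2 (adjusted p = 0.471 from edgeR). Part of its exons (456 bp of 10024 bp) overlaps Gm42802, a gene on the opposite strand, as do 148 bp of *Cd34* with Gm16897 and 17 bp of *Mcam* with Gm10687, and without a known strand setting such reads cannot be told apart.

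*Twist1* measured 18.0, 20.6, and 18.8 CPM in the WT libraries, against 16.2, 14.1, and 13.3 CPM in the *Plxnb1*-/- libraries, again with replicates in the order 1, 2, and 3. Every *Plxnb1*-/- library was below every WT library, and the gap did not rest on WT replicate 2. The means were 19.2 ± 1.32 CPM and 14.5 ± 1.46 CPM (SD, n = 3), a log2 fold change of −0.40 (SE 0.08, and edgeR gave an adjusted p of 0.266). Without WT replicate 2 it was −0.34 (adjusted p = 0.339 from edgeR). With DESeq2 the adjusted p was 0.00665, and with edgeR on all genes that had any count it was 0.0289, a setting that called 0.949% of the genes it tested.

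For the other PDGF receptor the genotypes overlapped. *Pdgfrb* measured 563, 727, and 638 CPM in the WT libraries, against 604, 581, and 578 CPM in the *Plxnb1*-/- libraries. WT replicate 1 was the lowest of all libraries and WT replicate 2 the highest. The log2 fold change was −0.13 (SE 0.08, and edgeR gave an adjusted p of 0.514), and it was −0.03 without WT replicate 2 and −0.21 without WT replicate 1.

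*Cd34* measured 2.36, 3.59, and 2.65 CPM in the WT libraries, against 2.59, 2.26, and 2.01 CPM in the *Plxnb1*-/- libraries, with overlap. Its log2 fold change of −0.32 (SE 0.17, and edgeR gave an adjusted p of 0.451) became −0.13 without WT replicate 2. *Dpt* measured 0.781, 0.683, and 0.551 CPM in the WT libraries, against 0.435, 0.386, and 0.721 CPM in the *Plxnb1*-/- libraries. *Plxnb1*-/- replicate 3 lay among the WT libraries, and the log2 fold change was −0.39 with a standard error of 0.28 (adjusted p = 0.567 from edgeR). It was −0.70 without that library and −0.22 without *Plxnb1*-/- replicate 2. *Ly6a* was the fibroblast marker with the opposite sign, at 0.516, 0.376, and 0.353 CPM in the WT libraries, against 0.281, 0.635, and 0.721 CPM in the *Plxnb1*-/- libraries, a log2 fold change of 0.39 (SE 0.36, and edgeR gave an adjusted p of 0.669). The lowest and the highest library were both *Plxnb1*-/-, and the value was 0.70 without *Plxnb1*-/- replicate 1 and 0.13 without *Plxnb1*-/- replicate 3. For *Clec3b*, the log2 fold change of −0.08 had a standard error of 0.50, and no difference was detectable at this depth. DESeq2 gave no adjusted p for *Dpt*, *Ly6a*, and *Clec3b*, as its filter on low means leaves them out.

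Among the mural markers, *Mcam* measured 763, 619, and 749 CPM in the WT libraries, against 753, 803, and 852 CPM in the *Plxnb1*-/- libraries. WT replicate 2 was the lowest library, and the others overlapped. The log2 fold change was 0.18 (SE 0.08, and edgeR gave an adjusted p of 0.379) and 0.09 without WT replicate 2. *Rgs5* measured 93.7, 83.9, and 98.6 CPM in the WT libraries, against 88.8, 95.4, and 106 CPM in the *Plxnb1*-/- libraries, with a log2 fold change of 0.07 (SE 0.08, and edgeR gave an adjusted p of 0.718). It too was lowest in WT replicate 2, and its log2 fold change was 0.01 without that library, 0.00 without *Plxnb1*-/- replicate 3, and 0.13 without WT replicate 3 or *Plxnb1*-/- replicate 1. Per unit of *Sox10*, *Mcam* stayed between 1.30 and 1.38 in all 6 libraries. Its lowest CPM was in WT replicate 2, as it was for 11 of 14 SC markers, and a source of its RNA in SCs was not tested.

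**Figure D2:**
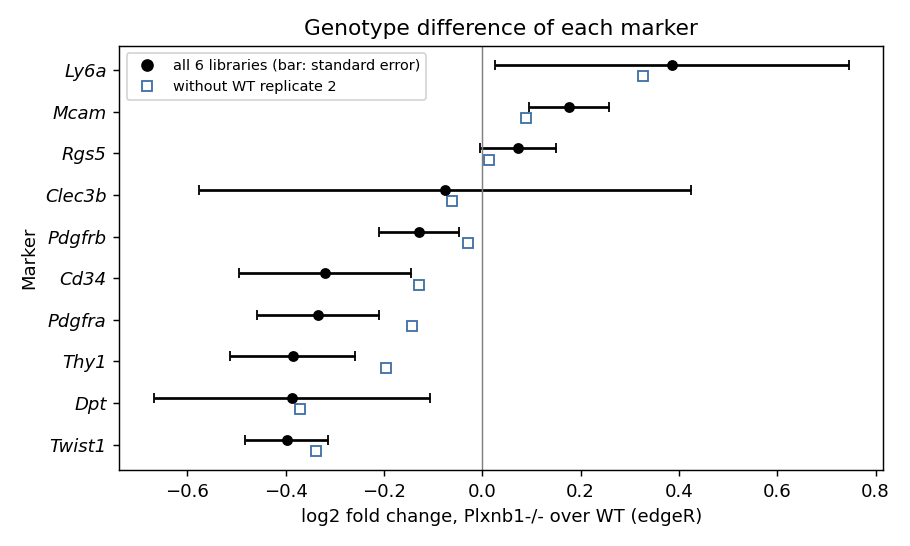
Log2 fold change of each marker between genotypes, with values below 0 lower in Plxnb1-/- SCs, from edgeR with all 6 libraries (black, bars show the standard error) and without WT replicate 2 (open squares). Of the 10 markers, 7 stand below 0, and Thy1, Pdgfra, Pdgfrb and Cd34 move toward 0 without that library, to −0.20, −0.14, −0.03 and −0.13.

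In the profiles over the libraries, WT replicate 2 held the highest CPM of 5 of the 10 markers (*Thy1*, *Pdgfra*, *Pdgfrb*, *Cd34*, and *Twist1*), where it held the highest CPM of 25.1% of all tested genes. It held the lowest CPM of 2 markers, *Rgs5* and *Mcam*, where it held the lowest of 27.0% of all tested genes. Relative to the mean of the other 5 libraries, WT replicate 2 stood at a ratio of 1.54 for *Thy1*, 1.51 for *Pdgfra*, 1.51 for *Cd34*, 1.28 for *Twist1*, and 1.23 for *Pdgfrb*, against 0.869 for *Rgs5* and 0.789 for *Mcam*. Of 14 SC markers, 11 had their lowest CPM in this same library, and 1, *S100b*, had its highest there. *Dpt*, *Ly6a*, and *Clec3b* did not follow this profile, with their highest values in WT replicate 1, *Plxnb1*-/- replicate 3, and *Plxnb1*-/- replicate 2.

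**Figure D3:**
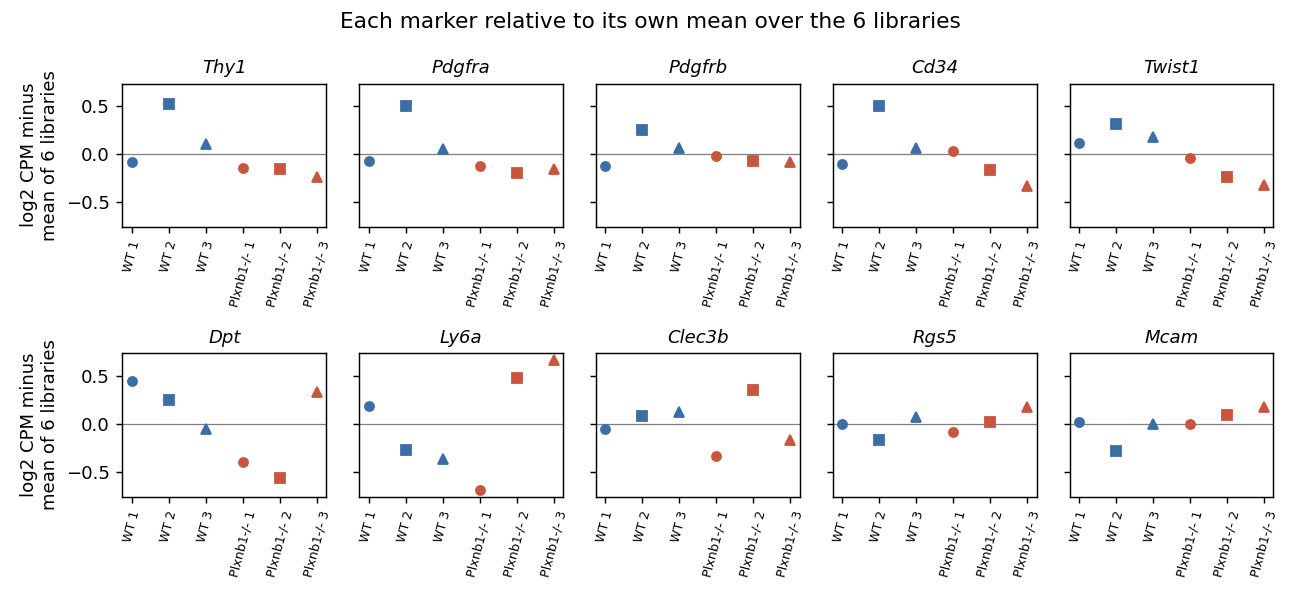
Log2 CPM of each marker in each library minus its mean over the 6 libraries, with WT in blue and Plxnb1-/- in red. The markers of the upper row are highest in WT replicate 2, whereas Rgs5 and Mcam are lowest there.

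The summed level of the 8 fibroblast markers was 265, 373, and 299 CPM per kb in WT replicates 1, 2, and 3 and 264, 258, and 249 CPM per kb in *Plxnb1*-/- replicates 1, 2, and 3. *Thy1* and *Pdgfrb* made up 93.0% to 94.0% of this sum, so it says little of the others. The difference of the mean log2 sums was −0.27, and −0.13 without WT replicate 2. It is a description without a test. The sum over *Pdgfrb*, *Rgs5*, and *Mcam* was 349.6 ± 13.0 CPM per kb in WT and 368 ± 14.3 CPM per kb in *Plxnb1*-/- SCs (SD, n = 3), with overlap. Over the 6 libraries, *Mcam* averaged 226 and *Pdgfrb* 112 CPM per kb, against 20.8 for *Rgs5*, so this sum says little of *Rgs5*.

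The SC markers differed in the opposite direction. Of 14, 13 were higher in *Plxnb1*-/- SCs, the median being 0.19 in log2 fold change (0.15 without WT replicate 2), and edgeR and DESeq2 each called 0, with 10 at an unadjusted p below 0.05 in edgeR, against 13.7% of all tested genes. Their summed level was 878 to 1037 CPM per kb in WT and 1038 to 1169 CPM per kb in *Plxnb1*-/- SCs, lowest in WT replicate 2. No SC marker was at 0 in a library. The fibroblast sum amounted to 0.260, 0.425, and 0.289 of the SC sum in WT and 0.254, 0.223, and 0.213 in *Plxnb1*-/- SCs. Every WT value was above every *Plxnb1*-/- value, but WT replicate 1 was close to *Plxnb1*-/- replicate 1. The part of the SC content in the values of the fibroblast markers was not tested.

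**Figure D4:**
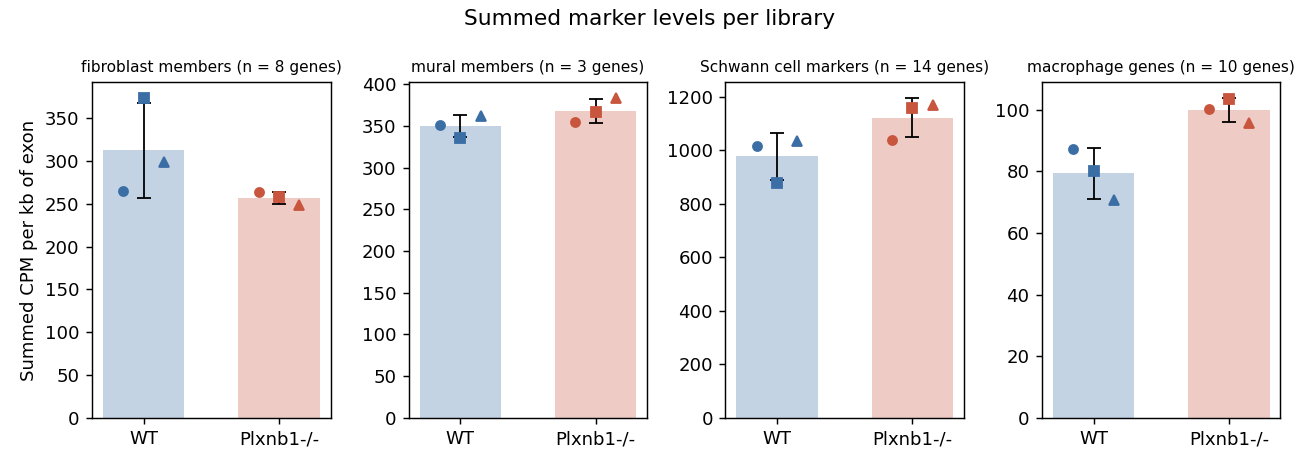
Summed level per library, in CPM per kb of exon, of the 8 fibroblast markers, the 3 mural markers (Pdgfrb is in both sums), 14 SC markers and 10 macrophage genes. Most of the macrophage sum is Lyz2. Bars show the mean of 3 libraries, error bars the SD and symbols the replicates; WT replicate 2 (square) has the highest fibroblast sum and the lowest SC sum.

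Other genes of the same cell types were read from lists written with earlier results known. Over 9 such lists with 91 tested genes, the SC markers included, edgeR called 0 and limma on FPKM called 0, while DESeq2 called 10 (5 higher and 5 lower in *Plxnb1*-/- SCs) against 1.50% of all tested genes. At an unadjusted p below 0.05 in edgeR, 37 of the 91 passed, against 13.7% of all tested genes. Of 19 further fibroblast genes, 18 were tested and 14 were lower in *Plxnb1*-/- SCs (median −0.13 in log2 fold change), of which DESeq2 called 1. Without WT replicate 2, 10 were lower and 8 higher (median −0.04). This library had the highest value of 13 of the 19. The summed level of the 19 amounted to 3.15, 4.30, and 3.16 of the SC sum in WT and 2.84, 2.67, and 2.58 in *Plxnb1*-/- SCs. The ratio to the SC sum thus depends on which fibroblast genes are summed and is no measure of the share of fibroblasts. The gene left untested, *Tcf21*, a transcription factor of fibroblast lineages, had 2 counts in *Plxnb1*-/- replicate 1 and 0 elsewhere. *Col1a1*, the main chain of type I collagen, ranked 9th of all tested genes at 948 ± 116 CPM per kb in WT and 771 ± 25.0 CPM per kb in *Plxnb1*-/- SCs (SD, n = 3), or −0.30 on the log2 scale (adjusted p = 0.273 from edgeR and 0.0258 from DESeq2), and −0.19 without WT replicate 2. *Mfap5*, a protein of microfibrils, had the lowest log2 fold change, −0.62 (adjusted p = 0.283 from edgeR), and *Dpp4*, an enzyme of fibroblast progenitors, the highest, 0.61, on 2 to 18 counts. Without WT replicate 2 these were −0.37 and 1.75.

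Of 13 further mural genes, 8 were lower (median −0.12 in log2 fold change, and −0.14 without WT replicate 2) and DESeq2 called 2 of them. Their levels differed widely, with means from 0.143 to 386 CPM per kb and 5 of the 13 below 1 CPM per kb. *Acta2*, smooth muscle actin, was the most abundant at 441 ± 83.1 CPM per kb in WT and 329.7 ± 22.2 CPM per kb in *Plxnb1*-/- SCs (SD, n = 3), with −0.42 on the log2 scale (adjusted p = 0.273 from edgeR and 0.0172 from DESeq2), and −0.26 without WT replicate 2. *Cnn1*, calponin of smooth muscle, had −0.44 (adjusted p = 0.194 from edgeR and 2.26e-04 from DESeq2), and −0.37 without WT replicate 2. *Higd1b*, a gene of pericytes, had 0.41 on 6 to 14 counts, and 0.04 without *Plxnb1*-/- replicate 3. Of the 13 genes, 6 were highest in WT replicate 2, *Acta2* and *Cnn1* among them, and 1 was lowest there. This was *Myh11*, the myosin heavy chain of smooth muscle, named after its values were seen, at 5.02 CPM in WT replicate 2 and 7.67 to 14.0 CPM in the other libraries.

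Among 5 genes of endoneurial mesenchyme, 4 were higher in *Plxnb1*-/- SCs, and DESeq2 called the chemokine *Cxcl14* (log2 fold change 0.32, adjusted p = 0.0147) and the transcription factor *Etv1* (0.36, adjusted p = 0.0360). *Sox9* had the lowest log2 fold change (−0.23, and −0.11 without WT replicate 2) and *Osr2* the largest (0.71, on 8 to 25 counts). Of 7 perineurial genes, 4 were lower and 3 higher. DESeq2 called *Itgb4*, an integrin of basement membrane contacts, as higher (0.42, adjusted p = 0.00706) and *Gjb2*, a connexin, as lower (−0.56, adjusted p = 0.00409), and the glucose transporter *Slc2a1* was the most abundant at 30.3 CPM per kb. The list thus held calls in both directions.

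Endothelial genes, which bear on *Cd34*, *Ly6a*, and *Mcam*, were mostly low, with 6 of 10 below 1 CPM per kb and a summed level of 17.2 to 21.9 CPM per kb in WT and 17.6 to 18.8 CPM per kb in *Plxnb1*-/- SCs. Most of that sum was *Cdh5*, the cadherin of endothelial junctions, at 14.0 CPM per kb. In all, 8 of 10 were lower in *Plxnb1*-/- SCs (median −0.44 in log2 fold change, and −0.16 without WT replicate 2), and 6 of 10 had their highest value in WT replicate 2. DESeq2 called *Esam*, a junction protein (−0.61, adjusted p = 0.0120). *Cldn5* had the lowest log2 fold change (−1.28, on 2 to 22 counts) and *Tek* the largest (0.59). Without WT replicate 2, *Cldn5* stood at −0.29 and *Esam*, at −0.63, was lowest. The part of endothelial RNA in the values of *Cd34*, *Ly6a*, and *Mcam* was not tested.

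Lists of the remaining cell types in a ganglion were measured the same way, and none of their genes was at 0 in a library. All 10 macrophage genes were higher in *Plxnb1*-/- SCs (median 0.27 in log2 fold change, summed level 95.9 to 103.5 CPM per kb against 70.8 to 87.4 in WT), with DESeq2 calls for lysozyme *Lyz2* (0.35, adjusted p = 0.00595) and the chemokine receptor *Cx3cr1* (0.49, adjusted p = 0.0497). *Lyz2*, the most abundant at 77.4 CPM per kb, made up most of the summed level in every library, and 5 of the 10 genes were below 1 CPM per kb. *Aif1* had the largest log2 fold change (0.71), and *Cd68* the lowest (0.13, and 0.20 without WT replicate 2). Of 10 neuron genes, 9 were higher (median 0.17), and without WT replicate 2 all 10 were (median 0.33), *Tubb3*, a tubulin, being the most abundant at 76.7 CPM per kb, with *Isl1* at 1.43 on 2 to 37 counts. All 4 genes of satellite glia were higher with all libraries (median 0.11), but 3 of 4 without WT replicate 2 (median 0.06), from *Glul* at 0.02 to *Slc1a3* at 0.71, and *Kcnj10* was the most abundant at 138 CPM per kb. None of the genes of these lists was called by edgeR.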

How the data were processed

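Per the labels and the methods of the study, the authors trimmed reads (Trim Galore 0.6.5), aligned them to mm10 (Bowtie2 2.4.1), removed duplicates (SAMtools 1.10) and counted reads on exons (featureCounts). The strand setting is not given in the sources used here. The authors deposited raw counts and FPKM values. The length behind the deposited FPKM matches exons plus introns, from start to end, for 99.5% of genes compared in each library (within 1%), so levels were compared between genes as CPM per kb of exon (GENCODE M21, GRCm38), which is not the release the authors used. Symbols were matched without the version for 55141 of 55401 genes.

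The 22318 genes that reached 2 counts in 5 or more of 6 libraries were tested with edgeR 4.0.16 (TMM, quasi-likelihood, no covariates) in R 4.3.3, with Benjamini-Hochberg adjustment over all of them. Calls needed an adjusted p under 0.05 and a log2 fold change beyond 0.25. Standard errors come from the log2 fold change and the F statistic. DESeq2 1.42.0 and limma 3.58.1 on log2(FPKM + 0.1) were alternatives. On simulated counts (21740 genes), 96 of 100 genes shifted by 1 (log2) and 68 of 100 shifted by 0.5 were called by edgeR, with 17 false calls. The shifted genes were drawn from those with a higher mean count, which leaves out *Dpt*, *Ly6a*, and *Clec3b*. No simulated library stood apart as WT replicate 2 did, so these shares need not hold for the real libraries. The markers and lists were chosen with earlier results of these data known. Named in the text are all 10 markers, *Plxnb1*, defining SC markers, and, in each list, the most abundant gene, both extremes of fold change, and genes called by either tool. *Tcf21* and *Myh11* were named after their values were seen, and some genes that the rule names are not reported here. Sequences were not analysed here.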

Additional observations from a re-analysis of the deposited data

How the results depend on the processing

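Of 169 values of single markers under the alternatives, 163 kept their direction and their side of the threshold, and 3 (*Dpt*, *Ly6a*, and *Clec3b* with DESeq2) kept their direction but had no adjusted p. *Twist1* passed with DESeq2 and with no filter on low counts, and the log2 fold change of *Clec3b* ran from −0.30 to 0.0630 when 1 library was left out, above 0 without *Plxnb1*-/- replicate 1. *Clec3b* could not be tested under filterByExpr. DESeq2 called 335 genes, 1 marker, and 10 genes of the other lists, and edgeR with no filter on low counts called 296, 1, and 9, against 8, 0, and 0. limma on log2(FPKM + 0.1) or log2(FPKM + 0.01) called 3 genes in each case. Leaving out 1 library at a time gave between 4 and 25 called genes (25 without WT replicate 2, 5 without *Plxnb1*-/- replicate 1, and 4 without *Plxnb1*-/- replicate 2 or 3), always 0 markers, and between 3 and 6 markers without overlap, with 6 when WT replicate 1 or *Plxnb1*-/- replicate 1 was left out. These counts of overlap without a library, and edgeR's newer quasi-likelihood estimate, were added after seeing the data. Genotypes separate more easily with fewer libraries, and the share of all tested genes was not computed for these counts, so they say little of the markers. The mural sum differed by 0.14 (log2) with the deposited FPKM, in place of 0.07. The fibroblast sum stayed between −0.38 and −0.13.

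The labels number replicates 1 to 3 in both genotypes without saying that a number pairs cultures. Deviations from the genotype means correlated at −0.02, 0.01, and 0.07 for libraries of the same number, and not every library correlated best with its own number. With the replicate block, 5 genes and 0 markers were called. The causes of these shifts were not tested. Depth limits *Clec3b*, with 4 to 6 counts, and to a lesser degree *Dpt* and *Ly6a*.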
